A study of Homo sapiens with 3 samples.

Results

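Counts were examined for 6 gene names of structured non-coding RNAs: RN7SL1 and RN7SL2, the copies of the signal recognition particle RNA (7SL), RN7SK (7SK RNA), RPPH1 and RMRP, the RNA subunits of RNase P and RNase MRP, and SCARNA2, a small Cajal body RNA. They were taken by name, 6 of the 26485 gene names in the tables, and were selected on their counts in these same libraries, which were known when the names were picked, so their levels and their differences between libraries are given as a description. The tables came from 3 libraries of HEK293, an established human line of embryonic kidney origin carrying adenovirus DNA, grown in DMEM with fetal calf serum. The series holds a single untreated condition in triplicate (n = 3), so there was no contrast between groups, and nothing in the labels says that the replicates came from separate cultures. Per the protocols, ribosomal RNA was removed from total RNA and a strand-keeping kit was used, although the titles call them mRNA sequencing. None of these RNAs carries a poly(A) tail.

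These RNAs work as the core of ribonucleoproteins. 7SL RNA holds together the particle that stops translation of secreted and membrane proteins and brings the ribosome to the endoplasmic reticulum. 7SK RNA, with the proteins LARP7, MEPCE and HEXIM1, holds the kinase P-TEFb in an inactive store and so limits elongation by RNA polymerase II. RPPH1 is the catalytic RNA of RNase P, which trims the 5′ leader of precursor tRNAs, and RMRP is the related RNA of RNase MRP, which cuts the ribosomal RNA precursor; mutations in RMRP cause cartilage-hair hypoplasia. 7SL, 7SK, RPPH1 and RMRP are made by RNA polymerase III. SCARNA2 stays in Cajal bodies and guides the 2′-O-methylation of a spliceosomal RNA.

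The sequences decide how many reads can be placed on each name, because reads that align to more than 1 place are set aside by the read counter in its usual mode. RN7SL1 (chr14:49586580-49586878, plus strand, 299 bases) and RN7SL2 (chr14:49862550-49862849, minus strand, 300 bases) lie on the same chromosome arm. Their transcripts, like those of the RNAs printed here, were taken from GENCODE release 29 on GRCh38. Of 300 aligned positions 295 were identical (98.3%), with 4 substitutions and 1 gap position at the 3′ end. A read can therefore tell the copies apart only if it covers 1 of these places.

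RN7SK (chr6:52995621-52995948, plus strand, 328 bases) shares stretches of 50 bases with 14 annotated genes at other loci. Its last 100 bases, positions 229 to 328, are printed with capitals on the bases that no window of 50 bases shared with a gene elsewhere covers. A window that takes in a capital was unmatched elsewhere, but so were some windows without one. The capitals thus do not mark every place where a read can be placed at the RN7SK locus alone.
RN7SK: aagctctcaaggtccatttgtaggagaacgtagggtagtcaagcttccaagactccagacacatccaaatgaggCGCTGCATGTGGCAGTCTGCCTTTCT
In the whole RNA, 26 bases, from position 303 to 328, were outside every window of 50 bases shared with an annotated gene at another locus. RMRP (chr9:35657751-35658018, minus strand, 268 bases) stands for the RNAs that shared no window with annotated genes at other loci. It is printed without marks, and its lower case does not mean shared bases. No window of it occurred in an annotated gene elsewhere.
RMRP: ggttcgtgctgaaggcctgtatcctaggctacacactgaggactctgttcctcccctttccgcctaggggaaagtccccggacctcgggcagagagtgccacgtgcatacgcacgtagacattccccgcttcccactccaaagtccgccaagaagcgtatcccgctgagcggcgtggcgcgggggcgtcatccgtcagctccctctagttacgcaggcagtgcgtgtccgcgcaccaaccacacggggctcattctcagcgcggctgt
SCARNA2 (chr1:109100193-109100612, plus strand, 420 bases) is shown by its last 100 bases, positions 321 to 420, to set out the letters of the snoRNA boxes, in capitals: TGATGA for box C and CTGA for box D.
SCARNA2: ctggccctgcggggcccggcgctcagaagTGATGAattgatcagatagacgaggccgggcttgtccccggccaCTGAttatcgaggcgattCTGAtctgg
Over the whole RNA strand TGATGA matched at position 350 and CTGA matched at positions 394 and 412. The other strand held 0 matches of TGATGA and 2 of CTGA, and the motifs do not overlap in this RNA. TGATGA was present in 16.3%, CTGA in 89.2% and both in 15% of 15173 annotated gene names with a transcript of 250 to 450 bases, so these letters describe the RNA and are no evidence of a box. RPPH1 (chr14:20343075-20343407, minus strand) has 333 annotated bases.

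Windows of 50 bases separated the 6 names into those that shared windows with annotated genes at other loci and those that did not. Annotated genes whose exons overlap a member's own locus were left out of this search. AL139099.4 over RN7SL1, RF00100 over RN7SK, AL355075.4 over RPPH1 and AL356488.2 over SCARNA2 are such genes: each covers the whole RNA on the same strand, and none of them has a row in the tables. For RN7SL1, 39 of 250 windows (15.6%) had no exact match on either strand in transcripts of annotated genes at other loci, for RN7SL2 34 of 251 (13.5%) and for RN7SK 64 of 279 (22.9%). All 284 windows of RPPH1, all 219 of RMRP and all 371 of SCARNA2 were unmatched elsewhere. Windows of RN7SL1 recurred in 9 annotated genes at other loci, all of them RN7SL names, those of RN7SL2 in 11, of which 9 were RN7SL names, and those of RN7SK in 14. With windows of 100 bases the shares were 25.5% for RN7SL1, 17.9% for RN7SL2 and 48.0% for RN7SK. The sources used here do not give the read length, and the search covered annotated transcripts and exact matches, so genomic copies outside the annotation were not counted. The counts of RN7SL1, RN7SL2 and RN7SK are for this reason uncertain, and the split between the 7SL copies most of all.

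**Figure D1:**
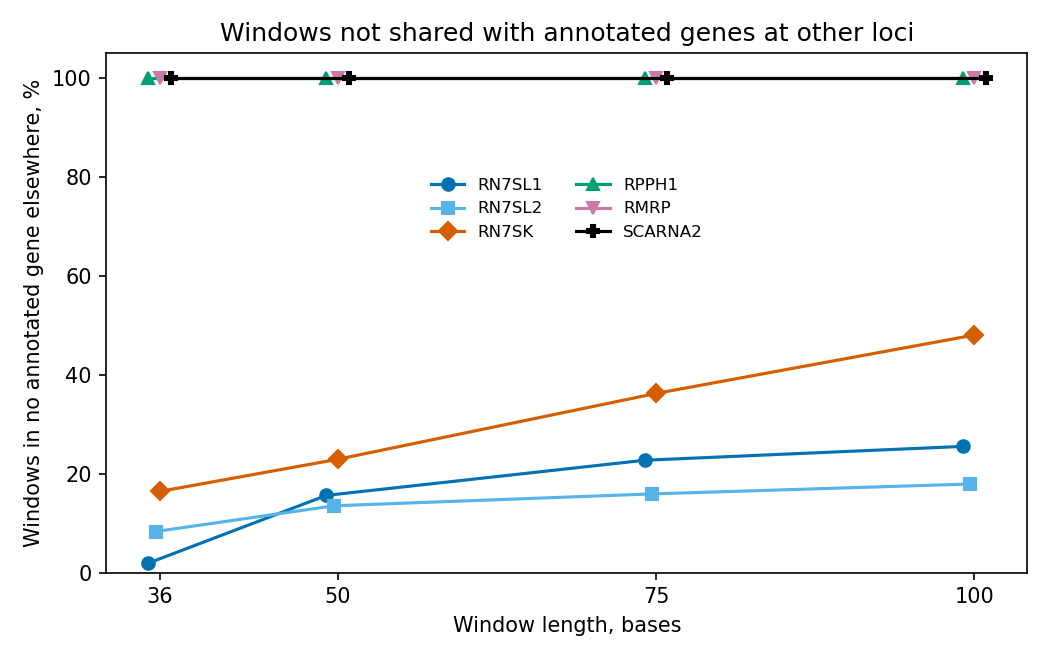
Share of windows of each RNA (vertical axis, %) found in no annotated gene at another locus, for windows of 36, 50, 75 and 100 bases (horizontal axis; points of overlapping lines are shifted sideways), leaving out annotated genes over the RNA's own locus. RPPH1, RMRP and SCARNA2 lie at 100% throughout, whereas RN7SL1, RN7SL2 and RN7SK stay between 1.9% and 48.0%.

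The depth under gene names was small. Gene-assigned counts were 412066, 483114 and 289241 in replicates 1, 2 and 3, or 1.76% to 2.48% of all records, while 90.6% to 91.5% of records fell in no annotated feature. CPM below are counts per 1000000 of the TMM effective library size, and a single count was worth 2.29 to 3.30 CPM. The strand option of the counter is not given, so a count may come from the named strand or from the opposite one. Of 8 marker genes of kidney development and neurofilaments that HEK293 cells are known for, 4 had a count and 1, NEFL, had at least 10 counts in every library. PAX2, LHX1 and GATA3 were among those with none.

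The signal recognition RNAs were the highest of the 6, also per kilobase. RN7SL1 had 558, 106 and 217 counts in replicates 1, 2 and 3, which are 1276, 244 and 715 CPM. RN7SL2 had 431, 86 and 222 counts, or 985, 198 and 732 CPM, in the same libraries. Replicate 1 was highest and replicate 2 lowest for both copies, and exact 95% Poisson intervals of the CPM did not overlap between any of the libraries for either copy. In bulk RNA, fewer cells with an RNA and less of it per cell cannot be told apart. RN7SL1 took 56.4% of the counts of both copies in replicate 1 (95% Wilson interval 53.3% to 59.5%), 55.2% in replicate 2 (48.1% to 62.1%) and 49.4% in replicate 3 (44.8% to 54.1%). These intervals overlapped among all 3 libraries, and RN7SL2 had the larger count in replicate 3 alone.

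7SK and the RNase RNAs followed. RN7SK had 248, 53 and 88 counts in replicates 1, 2 and 3, or 567, 122 and 290 CPM. RMRP had 195, 68 and 111 counts, or 446, 157 and 366 CPM. RPPH1, its relative in RNase P, had 156, 38 and 92 counts, or 357, 87.6 and 303 CPM. For all 3 of these RNAs replicate 2 was lowest and its interval lay below those of the other libraries, whereas the intervals of replicates 1 and 3 overlapped for RMRP and RPPH1 and not for RN7SK. SCARNA2, with 47, 17 and 23 counts or 107, 39.2 and 75.8 CPM, was the least counted member. Its interval in replicate 2, 22.8 to 62.7 CPM, overlapped that of replicate 3, 48.1 to 114 CPM, but not that of replicate 1, 78.9 to 143 CPM.

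**Figure D2:**
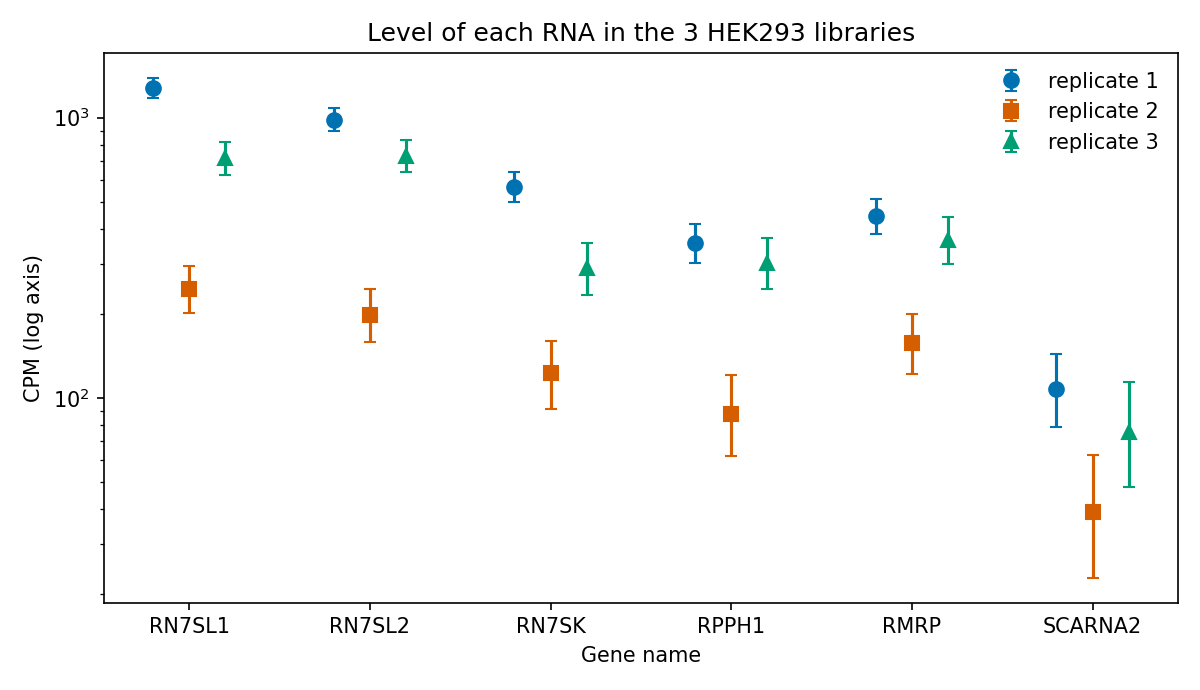
CPM (vertical axis, log scale) of each of the 6 RNAs (horizontal axis) in replicates 1, 2 and 3, with exact 95% Poisson intervals that cover counting error only. Replicate 2 is lowest and replicate 1 highest for every one of the 6 names.

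Per kilobase of annotated RNA, the order was RN7SL1, RN7SL2, RMRP, RN7SK, RPPH1 and SCARNA2. The whole annotated length was used for each. Of windows of 50 bases, 15.6% of RN7SL1, 13.5% of RN7SL2 and 22.9% of RN7SK were unmatched elsewhere, against 100% for the other RNAs. Values of RNAs with and without such shared windows are therefore not directly comparable. What part this has in the order and the ranks below was not tested. RN7SL1 averaged 2492 ± 1727 CPM per kilobase and RN7SL2 2128 ± 1339 (SD, n = 3 each). RMRP averaged 1204 ± 557, RN7SK 995 ± 685 and RPPH1 748 ± 428 CPM per kilobase (SD, n = 3 each). SCARNA2 averaged 177 ± 81.3 CPM per kilobase (SD, n = 3). Neighbours in this order differed by less than the larger of their SDs, other than RPPH1 and SCARNA2, whose values ranged from 263 to 1071 and from 93.3 to 256 CPM per kilobase. These SDs hold the differences between libraries that the RNAs shared. Within a library RN7SL1 exceeded RN7SL2 in replicates 1 and 2 only, and RMRP exceeded RN7SK in replicates 2 and 3 only. RN7SK exceeded RPPH1 in replicates 1 and 2 only. RN7SL2 exceeded RMRP, and RPPH1 exceeded SCARNA2, in all 3 libraries. RMRP exceeded RPPH1 in all 3 libraries. Among 24597 names with an annotated length, RN7SL1 ranked 7 and RN7SL2 11 by mean CPM per kilobase, RMRP 34, RN7SK 42, RPPH1 62 and SCARNA2 282. The names above RN7SL1 were 4 microRNA names led by MIR1282, the antisense RNA name TSIX, and ZRANB2-AS1. TSIX had 73642, 137675 and 49398 counts in replicates 1, 2 and 3, whereas ACTB, the gene of beta-actin, had 1, 0 and 1. Which strand the counts come from was not tested, so these are ranks among names as counted, not among RNAs. Without replicate 1 the mean was 480 CPM for RN7SL1, against 745 with all 3 libraries, and 206 CPM for RN7SK, against 326, so that their means per kilobase rest in large part on that library.

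All 6 RNAs stood in the same order between libraries. Together they had 1635, 368 and 753 counts in replicates 1, 2 and 3, or 3737.5, 848 and 2482 CPM. Replicate 1 thus held 4.41 times and replicate 3 2.93 times the summed CPM of replicate 2. The order of CPM, replicate 1 above 3 above 2, held for each of the 6 names and for 17.5% of the 2564 genes that reached 10 counts in all 3 libraries. The names were chosen with these counts known, so nothing is read from that count. RN7SL1 was 5.22 times higher and RN7SL2 4.97 times higher in replicate 1 than in replicate 2, RN7SK 4.64 times and RPPH1 4.07 times. RMRP was 2.84 times and SCARNA2 2.74 times higher in replicate 1 than in replicate 2.

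On a log2 scale, CPM of replicate 2 over the mean of replicates 1 and 3 was -2.11 for RN7SL2, -2.03 for RN7SL1, -1.91 for RPPH1, -1.81 for RN7SK, -1.37 for RMRP and -1.23 for SCARNA2. Over all 2564 genes with enough counts the median of this ratio was 0.0047, and the 5th and 95th percentiles were -1.09 and 1.09. The number of these genes with a lower ratio was 2 for RN7SL2, 3 for RN7SL1, 7 for RPPH1, 10 for RN7SK, 51 for RMRP and 83 for SCARNA2. Members with a lower ratio are themselves among the genes so numbered. As the names were picked with these counts known, nothing is read from these numbers. Replicate 1 over replicate 3 gave smaller values, between 0.23 for RPPH1 and 0.97 for RN7SK, where the median of all genes was -0.072 and the 95th percentile 0.87. RN7SK lay above that percentile and the other 5 RNAs did not.

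**Figure D3:**
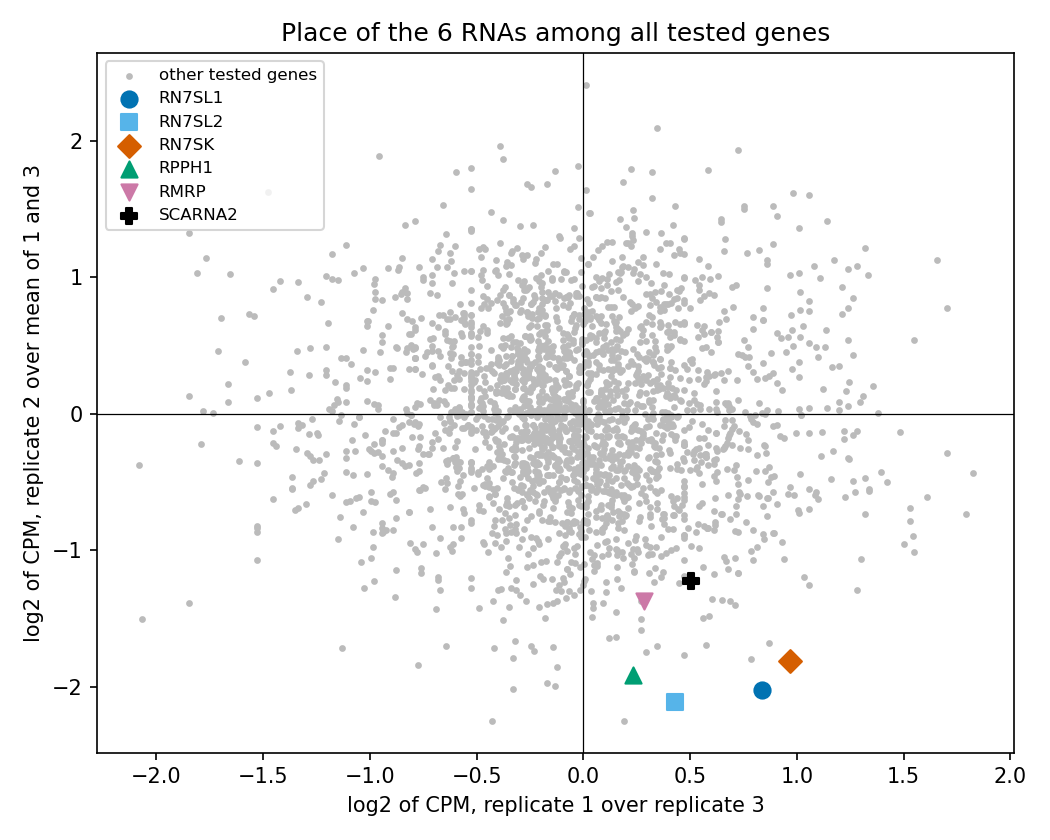
Log2 ratio of CPM in replicate 2 to the mean of replicates 1 and 3 (vertical axis) against the log2 ratio of replicate 1 to replicate 3 (horizontal axis). Grey points are the other genes that reached 10 counts in all 3 libraries and coloured symbols the 6 RNAs, which lie at the low end of the vertical axis, between -2.11 and -1.23.

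Variation between replicates beyond counting noise was called with edgeR's Poisson fit at an adjusted p under 0.05. This test called 1175 of the 2564 genes tested (45.8%), and all 6 RNAs were among them, from which nothing is read for the reason given above. Without replicate 2, the calls of RPPH1, RMRP and SCARNA2 were lost and those of RN7SL1, RN7SL2 and RN7SK stayed, with 263 of 2784 genes called in all (9.45%). Without replicate 1 the call of SCARNA2 was lost, with 786 of 2723 genes called in all (28.9%). When DESeq2 dispersions estimated on the same libraries were put in place of a dispersion of 0, no gene was called at an adjusted p under 0.05 and 10 had an unadjusted p under 0.05.

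Shares within the group shifted less than the levels. RN7SL1 made up 34.1%, 28.8% and 28.8% of the summed counts in replicates 1, 2 and 3, and RN7SK 15.2%, 14.4% and 11.7%. RPPH1 took 9.54%, 10.3% and 12.2% in these libraries. RMRP took 11.9% in replicate 1 (95% Wilson interval 10.4% to 13.6%), 18.5% in replicate 2 (14.8% to 22.8%) and 14.7% in replicate 3 (12.4% to 17.5%). The share of RMRP in replicate 2 was thus above that in replicate 1 beyond counting error.

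Records that aligned to more than 1 place were 7.51%, 6.005% and 6.81% of all records in replicates 1, 2 and 3, which is the order of libraries seen for the 6 RNAs. Per 1000000 of all records, the 6 RNAs together had 72.5, 18.9 and 45.7 counts in replicates 1, 2 and 3. The share of records assigned to gene names went the other way for replicate 2, at 2.48% against 1.83% in replicate 1 and 1.76% in replicate 3. What part these shares have in the level of the 6 RNAs was not tested.

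The genes whose profile over the 3 libraries lay nearest to that of the summed RNAs were RLIM, a ubiquitin ligase gene, STIP1, the gene of a co-chaperone of HSP70 and HSP90, EIF4E3, a cap-binding protein gene, UBAC2 and PPIL6. Their root mean square difference from the profile of the sum, in centred log2 CPM over 3 libraries, was 0.065 for RLIM, 0.083 for STIP1, 0.092 for EIF4E3, 0.12 for UBAC2 and 0.13 for PPIL6, among 2558 genes. RLIM had 48, 12 and 24 counts in replicates 1, 2 and 3. RN7SL1 itself lay at 0.115 from the profile of the sum and SCARNA2 at 0.304, farther than RLIM, STIP1 and EIF4E3.

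Other small structured RNAs were counted far less. The search of windows was not made for them, so what part reads that align to more than 1 place have in this was not tested. The families examined were scaRNAs, snoRNAs, spliceosomal snRNAs, Y RNAs, vault RNAs and the telomerase RNA, 490 names beside the 6. Of these, 19 had a count in any library, 3 were counted in all of the libraries and none reached 10 counts in all of them. SCARNA12 had 8, 3 and 4 counts and SCARNA10 had 8, 4 and 2 in replicates 1, 2 and 3, and these were the other 2 scaRNAs of 24 names with a count. SNORD3A, the U3 RNA that acts in ribosomal RNA processing, had 12, 0 and 1 counts and led the 3 of 279 box C/D names with a count. SNORD17 and SNORD60 had 1 count each. Of 108 box H/ACA names 8 had a count, led by SNORA73A with 7, 2 and 0 and SNORA57 with 1, 1 and 1. RNU4-2 with 8, 0 and 0 and RNU4-1 with 3, 0 and 0 led 4 of 71 spliceosomal names, RNY3 with 4, 0 and 0 was the counted Y RNA of 4, TERC had 4, 0 and 4, and no vault RNA of 4 had a count. A count of 0 still allows up to 3 counts, or 6.86, 6.92 and 9.89 CPM in replicates 1, 2 and 3.

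The 19 counted names together stood in the same order of libraries as the 6 RNAs. They summed to 61, 13 and 17 counts in replicates 1, 2 and 3. This equals 139 CPM (exact 95% Poisson interval 107 to 179), 30.0 CPM (16.0 to 51.2) and 56.03 CPM (32.6 to 89.7) in replicates 1, 2 and 3. Replicate 1 lay above the others beyond counting error, whereas the intervals of replicates 2 and 3 overlapped.

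The 6 RNAs are long for this class. Their annotated lengths ran from 268 to 420 bases, against a median of 95 bases over 488 of the other names with a length. Of 464 names under 200 bases, 13 had a count (2.80%), and their counts summed to 21, 4 and 6 in replicates 1, 2 and 3. Of the 24 other names of 200 bases or more, 6 had a count (25%). Over all kinds of gene names the share with a count was higher in each longer class: 2.05% of 1905 names under 100 bases had a count, 5.26% of 456 names from 100 to under 200, 18.6% of 70 from 200 to under 300, 31.8% of 245 from 300 to under 450, 34% of 1945 from 450 to under 1000 and 64.0% of 19976 names of 1000 bases or more. Among 203 names of any kind with a length from 268 to 420 bases, the members held ranks 1, 2, 5, 6, 8 and 14 by mean CPM, with the antisense RNA HLTF-AS1 at rank 3 and IRAIN at rank 4.

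**Figure D4:**
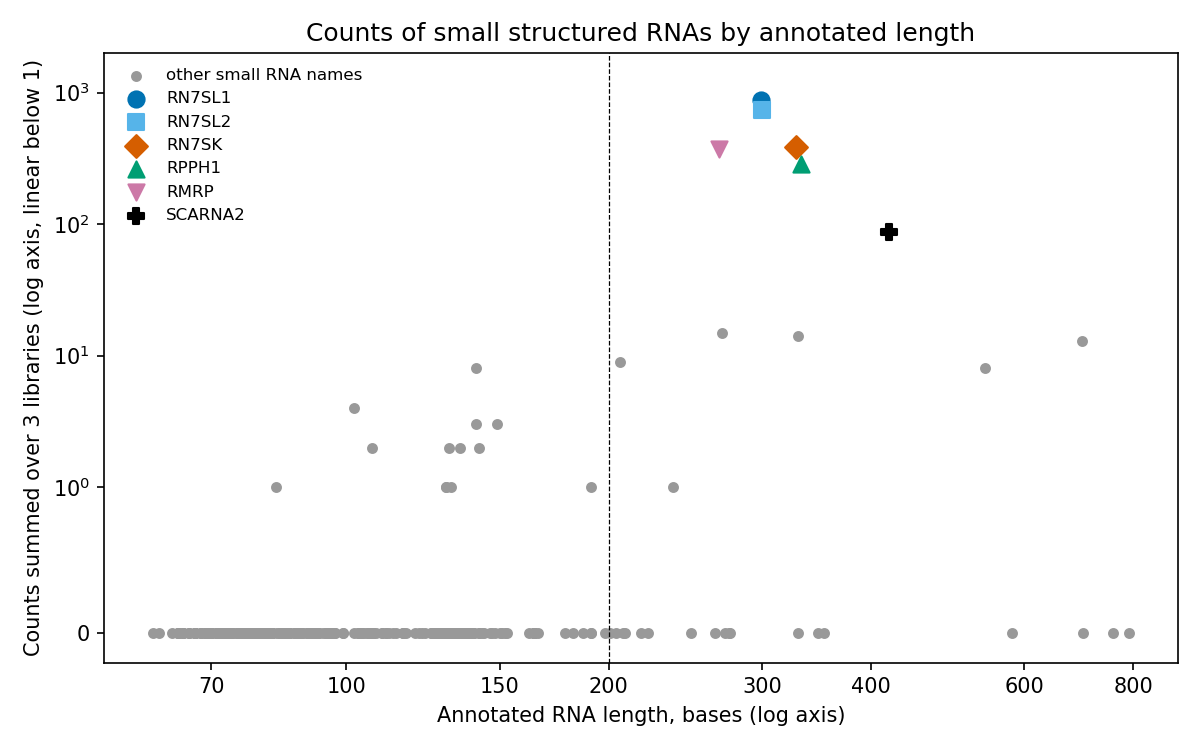
Counts summed over the 3 libraries (vertical axis, log scale, linear below 1) against annotated length in bases (horizontal axis, log scale) for small structured RNA names. Coloured symbols are the 6 RNAs, at 87 counts or more, grey points the other names, of which the highest has 15, and the dashed line stands at 200 bases.

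None of the 6 lay inside the body of a gene on the same strand that has a row in the tables, and RN7SL1 lay in an intron of RPS29 on the opposite strand. Of 141 other small RNA names outside such genes, 5 had a count (3.55%). Of 301 inside a same-strand gene 11 had a count (3.65%), and of 16 inside an opposite-strand gene alone 3 had one. No exon of a gene with a row in the tables overlapped any of the 6 on the opposite strand. Of genes with a row in the tables within 1 kb, RPS29 had 1, 0 and 1 counts, PARP2, 175 bases from RPPH1 on the other strand, had 3, 0 and 0, and GSTA4, 243 bases from RN7SK, had none. CCDC107, 272 bases from RMRP on the other strand, had 46, 34 and 47 counts in replicates 1, 2 and 3, and ARHGEF39, 857 bases from it, had 69, 53 and 60. By CPM both were lowest in replicate 2, as RMRP was, but highest in replicate 3. The GC content of the 6 RNAs was 58.2% to 65.5%, against a median of 48.4% over 198 names of that length range. The 5th and 95th percentiles of those names were 38.0% and 63.9%. RPPH1 (64.6%) and SCARNA2 (65.5%) lay above the 95th percentile, and the other members lay between the percentiles.

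Most protein partners of these RNAs had a count, but few reached 10 counts in all of the libraries. Of 76 partner genes in 5 groups 67 had a count (88.2%), against 54.7% of all names. That number of counts in all of the libraries was reached by 15 of the 76, beside 2564 of 26485 names. Their median of mean CPM was 9.41, beside 1.1 over all names and 7.89 over the names with a count. The names overall take in many short ones that are seldom counted. Of names of 1000 bases or more, 64.0% had a count. Among the 15, edgeR's Poisson fit called 10, with replicate 2 highest in 5 and lowest in 5, against 45.8% of all genes called. Without replicate 2 it called 2 of 16 (SNAPC5 and GTF3C3), against 9.45% of all genes tested. Without replicate 1 it called 5 of 16, among them HEXIM1, CDK13, BRF1 and SNAPC5, against 28.9% of all genes tested. Without replicate 3 it called 8 of 17, against 34.3% of all genes tested, with HEXIM1 and SNAPC5 no longer among them. The calls of SRP9, SRP19, HEXIM2 and POLR3G were thus lost without replicate 1 and also without replicate 2.

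Of the signal recognition particle, all 8 protein genes had a count, and the median of their mean CPM was 18.1. SRP9, whose protein binds the Alu domain of 7SL together with SRP14, had 33, 72 and 40 counts in replicates 1, 2 and 3 and passed the test of variation (adjusted p = 0.00182, edgeR's Poisson fit), with replicate 2 highest. SRP19, which prepares 7SL for the binding of SRP54, had 15, 43 and 17 counts and also passed (adjusted p = 0.0024), but 368 bases of its exons overlap REEP5 on the other strand. Replicate 2, the lowest library for both 7SL copies, was thus the highest for SRP9 and SRP19, but not for the whole group. SRPR, the gene of the receptor's alpha subunit, had 47, 36 and 31 counts and did not pass (adjusted p = 0.57, edgeR's Poisson fit). Of its exons, 158 bases overlap genes on the other strand. The log2 ratio of replicate 2 to the mean of the others, with a small constant added, was -0.335 for SRPR. It was also negative for SRP72 (-1.53), SRP54 (-0.28), SRPRB (-0.44) and SRP68 (-2.48), and positive for SRP14 (1.61). These last genes did not reach 10 counts in all 3 libraries.

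Of the 7SK group, 9 of 10 genes had a count and the median of mean CPM was 13.1. The group was drawn wider than the 7SK particle and P-TEFb, and took in CCNK, CDK12 and CDK13. HEXIM2 and HEXIM1, inhibitors of P-TEFb that act when bound to 7SK, had 275, 190 and 161 counts and 109, 79 and 97 counts in replicates 1, 2 and 3. Both passed the test (adjusted p = 0.00221 for HEXIM2 and 0.00333 for HEXIM1, edgeR's Poisson fit). Both were lowest in replicate 2 by CPM, HEXIM1 with a log2 ratio to the mean of the others of -0.64 beside -1.81 for RN7SK. CDK13, a kinase of the elongating polymerase, had 68, 107 and 45 counts and passed (adjusted p = 0.00604), with replicate 2 highest. Exons of HEXIM2, HEXIM1 and CDK13 overlap antisense RNAs on the other strand. LARP7, which holds the 3′ end of 7SK, had 1, 6 and 7 counts, MEPCE, its capping enzyme, 6, 4 and 5, and CDK9, the kinase of P-TEFb, none.

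Of 11 RNase P and MRP protein genes 9 had a count, with a median of mean CPM of 3.81. RPP38 led them with 35, 40 and 24 counts in replicates 1, 2 and 3 and did not pass (adjusted p = 0.82, edgeR's Poisson fit); its exons share 519 bases with C10orf111 and NMT2 on the other strand. RPP25 had 7, 4 and 6 counts and RPP30 13, 4 and 1, while POP1, the largest protein of both enzymes, and RPP21 had none. Of 15 genes listed for Cajal body particles 10 had a count, with a median of mean CPM of 6.01. The list was drawn wider than the particles themselves, and took in ZCCHC8 and PARN. WRAP53, whose protein brings scaRNAs to Cajal bodies, led with 25, 18 and 14 counts and did not pass (adjusted p = 0.64, edgeR's Poisson fit), and its exons share 399 bases with a gene on the other strand. ZCCHC8 had 15, 11 and 4 counts and NOP58, a box C/D core protein, 10, 9 and 2.

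RNA polymerase III and its factors, which make the RNAs of this group other than SCARNA2, had a count for 31 of 32 genes and a median of mean CPM of 10.8. SSB, the gene of the La protein that binds the 3′ ends of new polymerase III transcripts, led with 193, 184 and 155 counts in replicates 1, 2 and 3, with 459 ± 46.0 CPM (SD, n = 3), and did not pass the test (adjusted p = 0.30, edgeR's Poisson fit). SNAPC5, a subunit of the factor that binds the upstream promoters of 7SK, RPPH1 and RMRP, had 97, 88 and 107 counts, and BRF1, a factor of internal promoters, 50, 20 and 39. Both passed with replicate 2 lowest by CPM (adjusted p = 0.000959 for SNAPC5 and 0.000522 for BRF1, edgeR's Poisson fit). GTF3C3, a subunit of the factor that binds internal promoters, with 14, 80 and 35 counts and POLR3G, a polymerase subunit, with 10, 35 and 19 passed with replicate 2 highest (adjusted p = 1.13e-10 and 0.00182). Exons of all 5 of these genes overlap a protein-coding gene on the opposite strand, so their counts are uncertain as a measure of either partner.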

How the data were processed

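The authors deposited, judged from the values, raw whole-number counts per gene symbol, 1 table for each of 3 HEK293 libraries. The labels' protocols name rRNA depletion and a strand-preserving kit. The submitters' processing notes name Trimmomatic, TopHat2 (given as 2.2.5), HTSeq 0.11.2 and hg38. The sources used here do not give the annotation, strand option or read length. The counter's summary lines stayed out of library sizes and tests.

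CPM used TMM effective sizes (edgeR 4.0.16, R 4.3.3). Each gene that reached 10 counts in all 3 libraries entered an edgeR GLM holding an intercept alone, with its dispersion set to 0 and the deviance set against a chi-square distribution and Benjamini and Hochberg's adjustment. The test was also run on simulated counts that held Poisson noise alone, so that run cannot show how it behaves where libraries differ by more. DESeq2 1.42.0 gave alternative size factors and dispersions. Intervals came from scipy 1.17.1 and cover counting error only; p-values measure the spread of these samples, which may be technical.

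Sequences, lengths and positions came from GENCODE release 29 (GRCh38, the build the notes call hg38). Names were matched to it directly or through a RefSeq synonym, 24597 of 26485 (92.9%); small RNAs missing from it took their length from RefSeq. The search of windows was planned on a genome and run on annotated transcripts, without genes over a member's own locus; a genome sequence was not used here.

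The 6 members and all lists were chosen with earlier results of these data known. Named were the members, for each family the 2 highest names by mean CPM, for each partner list the 3 highest and those called, genes within 1 kb of a member and the 5 nearest profiles; some items are not reported here. The symbols SRPRA and NHP2L1 are other names of SRPR and SNU13 and were counted under these. Other names (further small RNAs and partners with few or no counts, HEK293 markers and names of similar length) were chosen after their values were seen.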

Additional observations from a re-analysis of the deposited data

How the results depend on the processing

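No paired analysis was possible because the series holds a single group. Leaving out 1 of 3 libraries cannot move a mean by the spread between replicates, and merged exons gave the same lengths for the 6 RNAs, so neither bears on stability. The mean summed CPM of the 6 RNAs, 2356, became 45.7 per 1000000 when all records were the denominator, by the change of unit, was 2321 with DESeq2 size factors and 2444 with total counts, and ranged from 1665 to 3110 without 1 replicate. The log2 ratio of replicate 2 to the others for the sum, -1.87, was -2.14 without replicate 3 and -1.55 without replicate 1. The count of genes varying between replicates, 1175 (45.8% of those tested), was 2914 with no count filter (20.1%) and 0 with DESeq2 dispersions. It was 263 to 1093 without 1 replicate (9.45% to 34.3%). The members called, 6, were 0 with DESeq2 dispersions and 3 to 6 without 1 replicate. The partner genes called, 10 of 15 tested, were 20 of 67 with no filter and 0 of 15 with DESeq2 dispersions. Without 1 replicate they were from 2 of 16 to 8 of 17. These dispersions are estimated from the same spread between libraries. Of the other small RNA names, 19 had a count, 3 a count in every library and 0 at least 10 counts there; of the partner genes 67 had a count and 15 at least 10 in every library. Depth limits the small RNAs: a count of 0 still allows up to 3 counts.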
